A study of Mus musculus with 9 samples.

Results

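The genes described here are 10 genes of fibroblast growth factor (FGF) signalling in fetal prostate mesenchyme, out of 19938 genes measured. They are the ligands Fgf2, Fgf7, Fgf9 and Fgf10, the receptors Fgfr1 and Fgfr2, and the feedback genes Spry1, Spry2, Spry4 and Dusp6. They were chosen by symbol, with earlier results of these data known, so counts among them are not independent evidence. All 10 were found on the array, each with 1 probeset.

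The cells were first-passage primary cultures of mesenchyme from the urogenital sinus (UGS), the embryonic tissue that forms the prostate, taken from male CD-1 mouse fetuses on gestation day 17. In all groups the cells were first kept for 3 days in medium with charcoal-stripped serum and 690 pM dihydrotestosterone (DHT), the potent androgen. They were then exposed for 4 days to ethanol vehicle, to 10 pM 17beta-estradiol (E2) or to 100 pM E2, so every group, vehicle included, carried DHT. Total RNA of 3 samples per group was hybridised to Affymetrix Mouse Gene 1.0 ST arrays, 9 in all. The labels do not say that the samples of a group were separate cultures, so a p-value reflects variation among the samples as given, and that variation could be technical. The cultures held mesenchyme without the epithelium on which several of these ligands act.

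Most FGFs are secreted proteins that bind receptor tyrosine kinases together with heparan sulfate chains at the cell surface. The bound receptor activates the Ras and ERK kinase cascade, and ERK in turn induces Sprouty proteins and the phosphatase Dusp6, which dampen the same cascade. In the developing prostate, Fgf7 and Fgf10 are made by the mesenchyme and act on a splice form of Fgfr2 carried by the epithelium, where they drive budding and branching. A gene-level probeset, as used here, does not separate the splice forms of a receptor.

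Values are log2 signals as deposited, so a difference of 1 is a doubling. Differences are given with the standard error (SE) of a linear model fitted with limma to all 19938 genes. A gene is said to have risen or fallen only where the Benjamini-Hochberg adjusted p over all genes was below 0.05. All pairwise comparisons use the same 9 arrays, so each of them shares samples with the others. With 3 arrays per group the precision is limited, and array medians lay between 6.17 and 6.20.

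At 100 pM E2, 2 of the 10 genes rose against vehicle, the ligand Fgf7 (1.53-fold) and the feedback gene Spry2 (1.21-fold), and none fell. In bulk RNA a change in the number of cells of a type and a change in RNA per cell cannot be told apart. Over all genes, limma called 1.13% in this comparison, with 0.446% of genes higher and 0.687% lower. The differences of the 10 genes had a median of 0.03, against 0.00 over all genes. At 10 pM E2 none of the 10 genes passed the test, as was the case for every gene measured.

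The start regions of Fgf7 and Spry2, which rose, and of Fgf10, the other ligand of the same epithelial receptor, are shown here because estrogen receptors can act through short DNA motifs near gene starts. Each is the 250 bases before the transcription start in RefSeq on mouse build GRCm38.p6, read on the gene's own strand. They lie at chr2:126034408-126034657 on the plus strand for Fgf7, at chr14:105896820-105897069 on the minus strand for Spry2 and at chr13:118714449-118714698 on the plus strand for Fgf10. Capitals mark a match to one of 6 motifs searched on both strands.
Fgf7: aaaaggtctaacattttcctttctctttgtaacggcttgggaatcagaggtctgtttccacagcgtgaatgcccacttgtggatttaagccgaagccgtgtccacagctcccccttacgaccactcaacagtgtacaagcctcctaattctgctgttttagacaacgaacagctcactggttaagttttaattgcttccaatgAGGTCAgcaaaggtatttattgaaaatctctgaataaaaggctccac
Spry2: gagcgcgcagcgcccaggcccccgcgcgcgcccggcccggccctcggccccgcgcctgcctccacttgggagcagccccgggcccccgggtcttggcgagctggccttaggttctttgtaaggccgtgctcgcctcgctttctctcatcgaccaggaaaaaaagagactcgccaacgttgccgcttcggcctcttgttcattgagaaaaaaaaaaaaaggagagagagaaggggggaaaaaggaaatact
Fgf10: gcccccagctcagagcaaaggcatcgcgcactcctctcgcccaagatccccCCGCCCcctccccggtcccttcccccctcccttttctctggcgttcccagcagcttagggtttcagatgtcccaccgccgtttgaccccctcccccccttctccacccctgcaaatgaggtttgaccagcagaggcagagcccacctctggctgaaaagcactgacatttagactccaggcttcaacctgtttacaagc

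The Fgf7 window held the hexamer AGGTCA, 1 arm of an estrogen response element, between 47 and 42 bases before the start. This hexamer was found in 14% of all 32851 RefSeq windows of this length, so it is a frequent word. The whole palindromic estrogen response element contains most of the hexamer and was found in 0.0639% of windows and in none of the 8 member windows available (Fgfr1 and Spry4 had no entry). The Spry2 window held no match to any of the motifs. The other motifs searched were the AP-1 site TGANTCA (6.75% of windows), the Sp1 box GGGCGG (32.7%), the ETS site CCGGAA (12%) and the TATA box TATAAA (12.4%). Of these, the Sp1 box matched in Fgf10, as shown, in Fgf2 and in Spry1, and no motif matched in Fgf9, Fgfr2 or Dusp6. GC content was 43.6% in the Fgf7 window, 62.4% in that of Spry2 and 61.2% in that of Fgf10. A match describes the letters and does not show a binding site.

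Fgf7, or keratinocyte growth factor, is a mesenchymal ligand that stimulates epithelial growth. Its log2 signals were 7.39, 7.50 and 7.48 in the vehicle arrays, 7.78, 7.93 and 7.85 at 10 pM E2, and 7.91, 8.22 and 8.09 at 100 pM E2. All 6 E2 arrays were above all 3 vehicle arrays, and the first array at 100 pM lay within the range of the 10 pM arrays. The means were 7.46 ± 0.06, 7.85 ± 0.07 and 8.07 ± 0.16 (SD, n = 3 each). Fgf7 rose at 100 pM E2 by 0.62 ± 0.08 on the log2 scale (SE; 95% interval 0.44 to 0.79; limma adjusted p = 0.00729). It ranked 62 of all genes by p in this comparison. It was also the member called by the limma F test over the 3 groups (adjusted p = 0.0157), which called 0.843% of all genes, and this call was lost in 5 of the 9 fits that left out 1 array (any vehicle array, the third at 10 pM or the third at 100 pM). The call at 100 pM held when any 1 of the 9 arrays was left out, with adjusted p between 0.0044 and 0.0462. It was lost (adjusted p = 0.0723) when only the 6 arrays compared were fitted, and also (0.0589) without both second arrays of vehicle and 100 pM.

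At 10 pM E2 the mean of Fgf7 was 0.40 ± 0.08 above vehicle (95% interval 0.22 to 0.57), a ratio of 1.32. Its limma adjusted p was 1 (unadjusted p = 0.000602), and it ranked 12 of all genes by p. The mean at 100 pM was a further 0.22 ± 0.08 above that at 10 pM (95% interval 0.04 to 0.39; limma adjusted p = 0.356). Only the comparison of 100 pM with vehicle therefore passed the test, although the 3 group means stood in the order of the dose.

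Fgf10, required for prostate budding, had values of 6.71, 6.63 and 6.55 in vehicle, 6.75, 6.58 and 6.50 at 10 pM, and 6.95, 6.98 and 6.63 at 100 pM. Its mean signal stood at percentile 52.9 of all genes, near the epithelial markers Krt8 (51) and Krt19 (51.1). Whether signals this low were above background was not tested, and a dim probeset can hide a change. The third array at 100 pM was as low as the vehicle arrays, while the other two were above all arrays of the other groups. The mean at 100 pM was 0.22 ± 0.10 above vehicle (95% interval -0.00 to 0.45; limma adjusted p = 0.464) and 0.24 ± 0.10 above 10 pM (adjusted p = 0.445). At 10 pM it differed from vehicle by -0.02 ± 0.10. The change of Fgf7 from vehicle to 100 pM exceeded that of Fgf10 by 0.39 on the log2 scale, taken as the difference of both genes within each array. An exact permutation test over arrays gave p = 0.1, two-sided, the smallest that 3 against 3 arrays allow, and 0.1 adjusted over the 4 gene pairs compared. This design therefore cannot pass the threshold. Fgf7 is the called ligand of the pair, so its larger change is not separate evidence.

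Fgf2, a ligand that acts on many mesenchymal cells through Fgfr1, was the member with non-overlapping lower signals in both E2 groups. Its signals were 7.97, 8.07 and 8.02 in vehicle, 7.92, 7.92 and 7.84 at 10 pM, and 7.70, 7.85 and 7.92 at 100 pM. Every E2 array was below every vehicle array, while the E2 groups overlapped each other. The difference was -0.20 ± 0.06 at 100 pM (95% interval -0.33 to -0.07), but it did not pass the test (limma adjusted p = 0.21). At 10 pM it was -0.13 ± 0.06 (95% interval -0.26 to 0.00; limma adjusted p = 1).

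Fgf9 is a ligand made by both epithelia and mesenchyme. Its signals ran from 6.14 to 6.17 in vehicle, from 6.17 to 6.26 at 10 pM and from 5.99 to 6.22 at 100 pM. The mean signal stood at percentile 44.1 of all genes, so the same limit of a dim probeset holds. The groups overlapped, and the difference at 100 pM was -0.03 ± 0.06 (95% interval -0.16 to 0.10; limma adjusted p = 0.887).

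**Figure D1:**
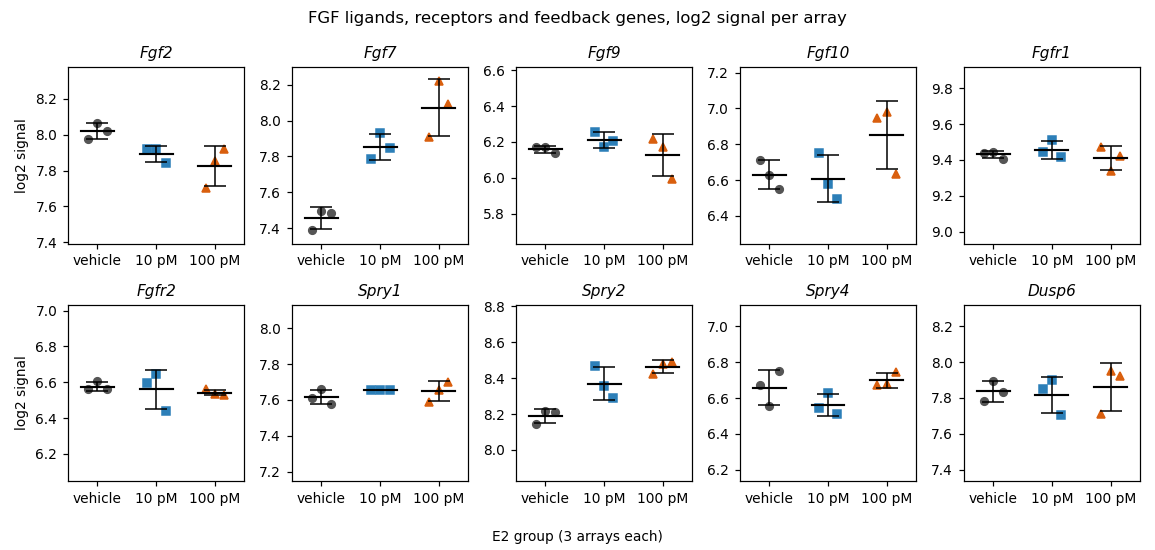
Log2 signal of the 10 FGF genes in each array, by E2 group (vehicle, 10 pM and 100 pM, 3 arrays each), with bars for the mean and SD; every panel covers its own range of signal. Fgf7 was at 7.39 to 7.50 in vehicle and 7.91 to 8.22 at 100 pM, and Spry2 at 8.15 to 8.22 and 8.43 to 8.49.

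The plot of signals by array shows all 10 genes. The separation of vehicle from both E2 groups in Fgf7 and Spry2 contrasts with the receptors below, whose groups overlapped. The E2 groups of Fgf7 and Spry2 overlapped each other.

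Neither receptor gene passed the test in any comparison. Fgfr1, the main FGF receptor of mesenchymal cells, read 9.44, 9.45 and 9.41 in vehicle, 9.44, 9.51 and 9.42 at 10 pM, and 9.47, 9.34 and 9.42 at 100 pM. Its difference at 100 pM was -0.02 ± 0.04 (95% interval -0.12 to 0.08; limma adjusted p = 0.913), and at 10 pM it was 0.03 ± 0.04. Fgfr2 read 6.56, 6.61 and 6.56 in vehicle, 6.60, 6.64 and 6.44 at 10 pM, and 6.56, 6.54 and 6.53 at 100 pM. Its difference at 100 pM was -0.03 ± 0.05 (95% interval -0.15 to 0.09; limma adjusted p = 0.864), and at 10 pM it was -0.02 ± 0.05. These intervals do not show that the receptor genes were unaltered. The mean signal of the Fgfr1 probeset over the 9 arrays stood at percentile 92.7 of all genes and that of Fgfr2 at percentile 50.8, a position that also depends on the probes.

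Among the feedback genes, Spry2 rose at 100 pM E2. Sprouty proteins block signalling from FGF and other growth factor receptors towards ERK. Spry2 had signals of 8.15, 8.22 and 8.21 in vehicle, 8.47, 8.35 and 8.29 at 10 pM, and 8.43, 8.48 and 8.49 at 100 pM. All E2 arrays were above all vehicle arrays, and the E2 groups overlapped. The difference from vehicle was 0.27 ± 0.05 at 100 pM (95% interval 0.16 to 0.39; limma adjusted p = 0.0402). At 10 pM it was 0.18 ± 0.05 (95% interval 0.07 to 0.29; limma adjusted p = 1, unadjusted p = 0.00575, rank 72). Between the doses Spry2 differed by 0.09 ± 0.05 (limma adjusted p = 0.584).

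The call of Spry2 is near the threshold. It was lost in 7 of the 9 fits that left out 1 array, namely without any vehicle array, without any 100 pM array or without the second 10 pM array, with adjusted p of up to 0.154. The difference itself stayed between 0.25 and 0.29 in these fits. The call was also lost with all probesets tested (adjusted p = 0.115), with the replicate number as a block (0.108), with only the 6 arrays compared (0.0725) and without both second arrays of vehicle and 100 pM (0.25).

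Spry1, a Sprouty gene of the same family, read 7.61, 7.66 and 7.58 in vehicle, 7.66 in each array at 10 pM, and 7.59, 7.66 and 7.70 at 100 pM. The 3 values at 10 pM were identical in the deposited table. Such repeats are common there, since 72.7% of genes had fewer than 9 distinct values over the 9 arrays. The difference of Spry1 at 100 pM was 0.03 ± 0.04 (95% interval -0.06 to 0.12; limma adjusted p = 0.832).

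Spry4 read 6.67, 6.56 and 6.75 in vehicle, 6.55, 6.63 and 6.51 at 10 pM, and 6.67, 6.68 and 6.75 at 100 pM. Its mean signal was also dim, at percentile 52 of all genes. All 100 pM arrays were above all 10 pM arrays, but both groups overlapped vehicle. The mean differed by 0.14 ± 0.06 between the doses (95% interval 0.01 to 0.26; limma adjusted p = 0.437) and by 0.04 ± 0.06 between 100 pM and vehicle (95% interval -0.09 to 0.17; adjusted p = 0.842).

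Dusp6, the cytoplasmic phosphatase that switches off ERK, read 7.78, 7.89 and 7.83 in vehicle, 7.85, 7.90 and 7.71 at 10 pM, and 7.71, 7.95 and 7.93 at 100 pM. The groups overlapped, with a difference of 0.03 ± 0.07 at 100 pM (95% interval -0.14 to 0.19; limma adjusted p = 0.938). The first 100 pM array lay below the vehicle arrays and the other two above them.

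Spry2 was also set against the other 3 feedback members. It is the called one of the 4, so a larger change or a lack of overlap is not separate evidence. Its change from vehicle to 100 pM exceeded that of Spry1 by 0.24, that of Spry4 by 0.23 and that of Dusp6 by 0.25 on the log2 scale. In each of these pairs the within-array differences of the vehicle and 100 pM groups did not overlap. The exact permutation p was 0.1 for each, two-sided, which is the smallest possible here, and 0.1 adjusted over the 4 pairs, so this design cannot pass the threshold.

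**Figure D2:**
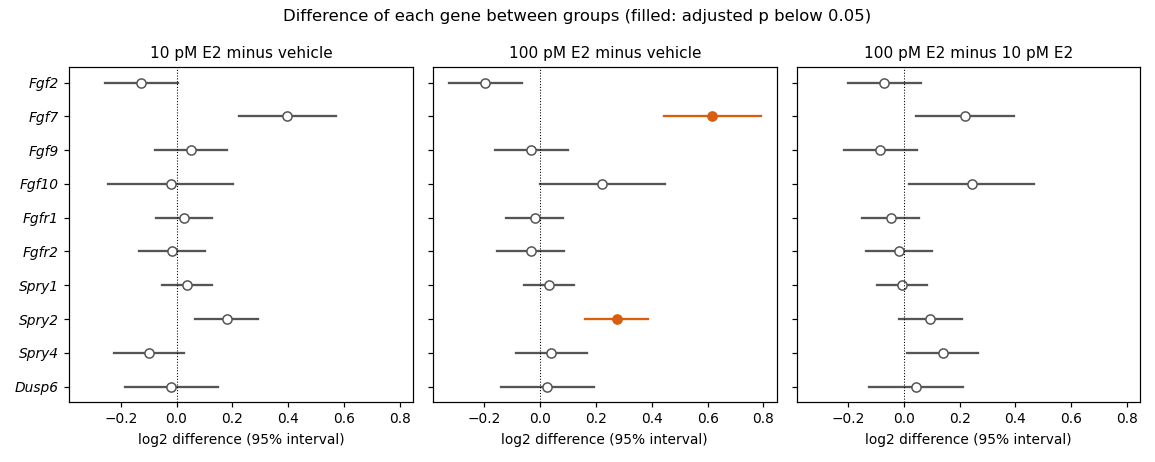
Log2 difference of each FGF gene between groups, with its 95% interval from limma, for 100 pM E2 minus vehicle, 10 pM E2 minus vehicle and 100 pM minus 10 pM E2 (n = 3 arrays per group). Fgf7 (0.62) and Spry2 (0.27) at 100 pM are the called differences (filled points), and the receptor intervals span 0.

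The plot of differences sets the 3 comparisons side by side. In the comparison of 100 pM with vehicle, the arrays of 3 of the 10 genes did not overlap (Fgf7 and Spry2 higher, Fgf2 lower), against 12.5% of all genes. At 10 pM, the same 3 genes had arrays that did not overlap with vehicle, against 5.93% of all genes (3.74% for genes higher at 10 pM). None of these 10 pM differences passed limma, which called 0% of genes in this comparison. At an unadjusted p below 0.05, 2 members (Fgf7 and Spry2) and 705 genes in all (3.54%) stood out. Between the doses limma called 0.833% of genes and no member, and only Spry4 had arrays that did not overlap, against 12.3% of all genes (5.89% higher at 100 pM). There 3 members (Fgf7, Fgf10 and Spry4) and 10.2% of all genes had an unadjusted p below 0.05. One-way analysis of variance, which the study's methods used, placed 2 of the 10 genes (Fgf7 and Spry2) and 2.66% of all genes past its unadjusted threshold of 0.01. After Benjamini-Hochberg adjustment it called 0 of the 10 and 1 gene in all.

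The remaining genes of the pathway were counted from 6 lists with 84 genes measured, also chosen with earlier results of these data known. At 100 pM E2, 1 of the 84 rose and 3 fell against vehicle, where 1.13% of all genes were called. Their median difference was 0.01. None of the 84 passed the test at 10 pM. Between the doses, 2 rose and 2 fell, where 0.833% of all genes were called.

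Of 18 further genes of the FGF family, 1 fell at 100 pM and 17 did not pass. This was Fgf18, a ligand that acts mainly on mesenchymal cells in bone and lung. It read 8.52, 8.43 and 8.81 in vehicle, 8.35, 8.34 and 8.27 at 10 pM, and 7.95, 7.72 and 7.83 at 100 pM. The groups did not overlap, with the 100 pM arrays lowest and the vehicle arrays highest. Fgf18 fell by 0.75 ± 0.09 at 100 pM, or 1.68-fold (limma adjusted p = 0.00752). At 10 pM its difference was -0.26 ± 0.09 (adjusted p = 1), and between the doses it was -0.49 ± 0.09 (adjusted p = 0.061). Among 7 further receptor and co-receptor genes none passed. Kl, the co-receptor klotho, had the smallest p at 100 pM (0.11 ± 0.07, limma adjusted p = 0.64). Its mean signal was dim, at percentile 22.1 of all genes.

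Heparan sulfate genes, whose products shape how FGFs reach their receptors, held 2 that fell at 100 pM among 20 measured. Sulf1, a secreted enzyme that trims sulfate groups from these chains, read 11.82, 11.77 and 11.88 in vehicle, 11.76, 11.78 and 11.75 at 10 pM, and 11.20, 10.90 and 11.22 at 100 pM. The 100 pM arrays were all lower than the rest. Sulf1 fell by 0.72 ± 0.08 (1.65-fold; limma adjusted p = 0.00399) against vehicle and by 0.66 ± 0.08 against 10 pM (adjusted p = 0.0097). The latter call was lost without any 1 of the 10 pM arrays (up to 0.0570). At 10 pM its difference from vehicle was -0.06 ± 0.08.

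Gpc3, a glypican, that is a core protein carrying the chains, read 7.36 to 7.42 in vehicle, 7.32 to 7.36 at 10 pM and 6.57 to 7.03 at 100 pM. It fell by 0.61 ± 0.10 against vehicle (limma adjusted p = 0.0208) and by 0.55 ± 0.10 against 10 pM (adjusted p = 0.0382). The call against vehicle held without the first or the second 100 pM array and was lost in the other 7 fits that left out 1 array (adjusted p up to 0.0989). The call between the doses held without the first 100 pM array and was lost in the other 8 (up to 0.161). Another glypican gene, Gpc4, read 10.22 to 10.30 in vehicle, 10.17 to 10.26 at 10 pM and 10.42 to 10.55 at 100 pM. It rose by 0.28 ± 0.05 between the doses (limma adjusted p = 0.0333), a call that was lost in the same 8 fits (up to 0.139). Against vehicle the difference of Gpc4 was 0.24 ± 0.05 (adjusted p = 0.0525).

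Of 12 genes of the signal relay none passed. The smallest p was that of Map2k2, a kinase that activates ERK, which stood 0.14 ± 0.05 above vehicle at 100 pM (limma adjusted p = 0.318). Of 14 further feedback genes none passed either. There Dusp4, a nuclear ERK phosphatase, read 6.77, 6.89 and 6.78 in vehicle, 6.98, 6.93 and 6.95 at 10 pM, and 6.95, 7.26 and 7.16 at 100 pM. Its E2 arrays were all above the vehicle arrays, with a difference of 0.31 ± 0.07 at 100 pM (adjusted p = 0.112).

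Of 13 genes known as targets of ERK signalling, 1 rose at 100 pM. It was Ccnd1, the cyclin that drives entry into the cell cycle, which many other signals also induce. It read 9.08, 9.19 and 9.16 in vehicle, 9.18, 9.25 and 9.20 at 10 pM, and 9.57, 9.64 and 9.53 at 100 pM. The 100 pM arrays were above all others. Ccnd1 rose by 0.44 ± 0.05 against vehicle (limma adjusted p = 0.00359) and by 0.37 ± 0.05 against 10 pM (adjusted p = 0.0097, lost without the first or the third 10 pM array, up to 0.0616). The other 12 targets did not pass at 100 pM.

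**Figure D3:**
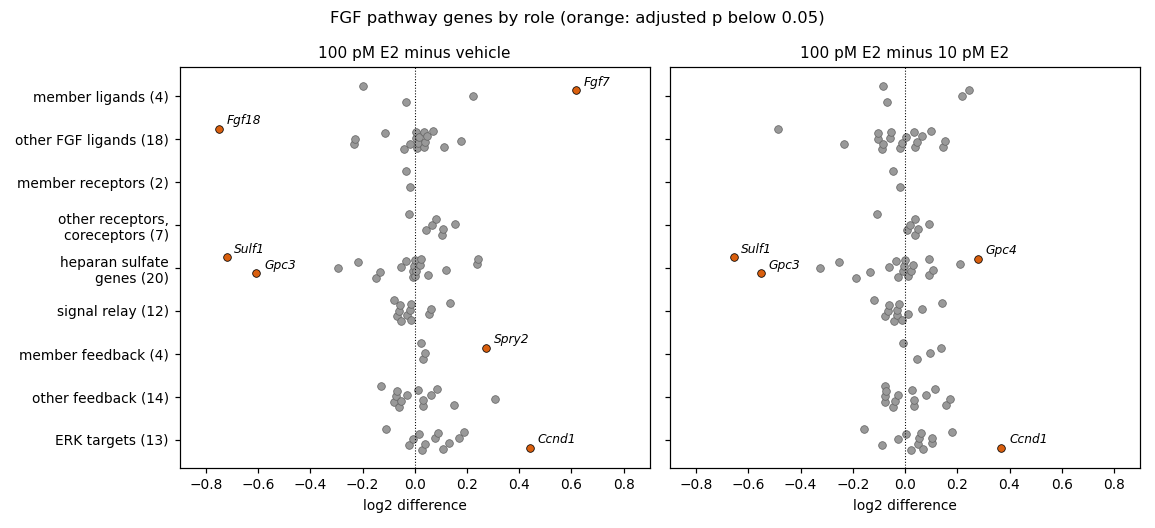
Log2 difference of the 10 FGF genes and the 84 wider pathway genes, by role, for 100 pM E2 minus vehicle (left) and 100 pM minus 10 pM E2 (right); each point is 1 gene (n = 3 arrays per group), the number measured stands beside each role, and orange points passed limma. Against vehicle Fgf7 (0.62), Ccnd1 (0.44) and Spry2 (0.27) rose and Fgf18 (-0.75), Sulf1 (-0.72) and Gpc3 (-0.61) fell.

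**Figure D4:**
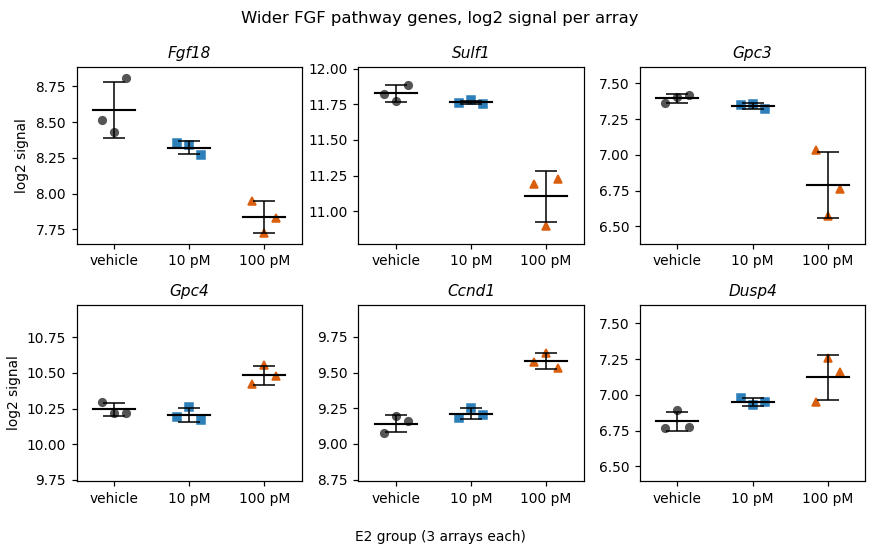
Log2 signal per array of 6 wider pathway genes by E2 group (3 arrays each), with bars for mean and SD and a separate range of signal in each panel. At 100 pM, Fgf18 (7.72 to 7.95), Sulf1 (10.90 to 11.22) and Gpc3 (6.57 to 7.03) lay below all other arrays, and Ccnd1 (9.53 to 9.64) and Gpc4 (10.42 to 10.55) above.

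The plots of the wider pathway show the called genes on both sides of 0. With only the 6 arrays compared in the fit, none of the 84 passed at 100 pM against vehicle (adjusted p for Sulf1 0.0647, Fgf18 0.0866, Gpc3 0.152 and Ccnd1 0.0527).

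The pattern of Fgf7 over the arrays was compared with that of 9966 genes of above-median signal. The highest correlations over the 9 arrays were those of Prxl2a (Pearson r = 0.98), Sprr1a (0.97), Pgr (0.96), Spock3 (0.96) and Tacc1 (0.96). The lowest were those of Dcaf8 (-0.95), Cntfr (-0.94), Mest (-0.92), Plcl1 (-0.92) and the macrophage marker Cd68 (-0.91). Pgr, the progesterone receptor gene and a classic estrogen target, rose by 1.04 at 100 pM (limma adjusted p = 0.00359). Among the other members, Spry2 was closest to Fgf7 (r = 0.89), followed by Spry1 (0.51), Fgf10 (0.42) and Dusp6 (0.33). Fgf2 was the most opposed (-0.63), and the other four lay between -0.26 and 0.11. These values describe 9 arrays in 3 groups, so genes that differ between the same groups will correlate.

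Markers of cell types were read as a check of the cultures. Mesenchymal markers were bright (percentiles 82.2 to 100 of all gene signals for the 12 genes), and the 17 epithelial markers ranged from percentile 15.8 (Esrp1) to 66.4 (Krt18), with Epcam at 25.4, Cdh1 at 27.6, Krt8 at 51.0 and Krt19 at 51.1. The summed signal of the 12 mesenchymal markers was 15.74 to 15.76 on the log2 scale in vehicle. It was 15.74 to 15.78 at 10 pM and 15.71 to 15.75 at 100 pM. Of the 12, 4 fell at 100 pM (Pdgfra, Lum, Dcn and Col3a1), where limma called 0.687% of genes lower. The summed signal of 12 macrophage markers was 9.42 to 9.56, 9.32 to 9.50 and 9.18 to 9.24. Of the 12, 11 were lower at 100 pM and 1, C1qb, was called. In that comparison 9363 of the 19938 genes had a negative difference. There 5 of the 12 macrophage markers lay wholly below vehicle, as did 1175 of all genes. At 10 pM 9 of the 12 were lower and none was called, where 9260 genes had a negative difference. Among 17 epithelial markers the sum was 10.10 to 10.13, 10.08 to 10.11 and 10.17 to 10.25, and none was called against vehicle. Krt18 rose between the doses, where limma called 0.226% of genes higher. Of 10 endothelial markers Emcn rose at 100 pM, where limma called 0.446% of genes higher. None of 10 smooth muscle or 7 neural markers was called. The 10 smooth muscle markers ranged from percentile 41.2 (Myocd) to 100 (Acta2), with Synpo2 at 52.7, Lmod1 at 64.8, Actg2 at 99.5 and Tagln at 99.8. The summed signal of 9 proliferation markers was 11.96 to 12.01 in vehicle, 12.06 to 12.08 at 10 pM and 12.00 to 12.14 at 100 pM. Of these, 8 of 9 were higher at 100 pM, with Plk1 called, where 10561 of the 19938 genes had a positive difference. At 10 pM 9 of 9 were higher and none was called, where 10660 genes had a positive difference. There 6 of the 9 lay wholly above vehicle, a separation seen in 3.74% of genes. The part of these markers in the results for Fgf7, Spry2, Ccnd1 and the wider pathway was not tested.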

How the data were processed

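Urogenital sinus mesenchyme cells of 3 groups were profiled on 9 arrays, with groups and replicate numbers read from each title. The deposited values are log2 signals per probeset, made by the authors in GCOS and Affymetrix's Gene Expression Console, whose versions are not given in the sources used here. The log2 scale was read from the values, and the normalization method is not given there. Signals keep no read depth, and the number of arrays limits precision. The files hold no batch record that was used here.

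Of 35556 probesets, 21789 had 1 gene symbol in the platform annotation, 1621 had several and 12146 were unnamed here. Symbols were updated through 21698 matched Entrez identifiers (RefSeq table of GRCm38.p6). The brightest probeset was kept for 999 genes with several, which left 19938 genes with no filter on dim signals. A mean per group was fitted with limma 3.58.1 in R 4.3.3 (lmFit, eBayes), with two-sided tests and Benjamini-Hochberg adjustment over all genes. Tested on simulated data, the procedure recovered most planted changes of 1 on the log2 scale. Its recovery of smaller changes is not given here.

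The members, the 6 wider lists and the marker lists were chosen with earlier results of these data known. Named were all members, up to 4 called genes of each wider list (or the gene of smallest p at 100 pM), and the genes most and least correlated with Fgf7. The replicate numbers were not taken as a pairing of the samples in the main fit. Alternatives were a filter on the dimmest 30% of genes, array centring, quantile normalization, averaging probesets, a fit of all probesets, a trended robust variance, the replicate block, the compared groups only, analysis of variance, and leaving out each array. Leaving out both second arrays of vehicle and 100 pM was added after results had been seen. Promoter windows came from RefSeq (250 bases). Figures were drawn with matplotlib 3.10.9.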

Additional observations from a re-analysis of the deposited data

How the results depend on the processing

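The direction of Fgf7 and Spry2 at 100 pM E2 was the same in every alternative run. All their 100 pM arrays lay above all vehicle arrays, so leaving out arrays could not turn it. Several other alternatives changed only the variance or the genes tested and kept the same difference. The sameness of direction is therefore not separate evidence, and the calls were less stable. Of the 10 genes, the F test over 3 groups called 1, and it called 2 without the dimmest 30% of genes or with a trended robust variance, 0 with all probesets tested, with analysis of variance or without both second arrays, and 0 to 1 when 1 array was left out. At 100 pM against vehicle the 2 called genes became 1 with all probesets tested, 0 with the 6 arrays compared only, 0 without both second arrays, and 1 to 2 when 1 array was left out. No member was called at 10 pM or between the doses under any alternative. Of the 84 wider genes, 4 were called at 100 pM against vehicle, and 7 without the dimmest genes, 0 with the 6 arrays and 3 to 8 when 1 array was left out. Between the doses the 4 called became 7, 0 with all probesets tested, 0 with the 6 arrays, 1 without both second arrays, and 0 to 5 when 1 array was left out. The cause was not tested.

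With the replicate block, that is the replicate number as a factor, 1 member (Fgf7) was called at 100 pM against vehicle, the adjusted p of Spry2 being 0.108, and 2 wider genes between the doses. The main fit did not take the numbers as a pairing of the samples. Each deviation below is from a mean of 3 arrays, so such correlations cannot exclude a pairing. Deviations from group means of samples with the same number correlated between -0.112 and 0.2, with 1 of 9 pairs over 0.1. Those of samples with other numbers correlated between -0.189 and 0.168. Of the 9 arrays, 0 correlated best with their own number in both other groups at once.

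Signs turned only in differences that had passed no test. Spry1 between the doses was 0.0045 with array centring and 0.0023 with quantile normalization. Without both second arrays, Fgfr1 (0.025) and Spry4 (-0.00074) at 100 pM, Dusp6 at 10 pM (0.0105) and Dusp6 between the doses (-0.00044) turned. Leaving out 1 array gave, at 100 pM against vehicle, -0.078 to 0.035 for Fgf9, -0.051 to 0.017 for Fgfr1, -0.011 to 0.086 for Spry4 and -0.019 to 0.102 for Dusp6. At 10 pM it gave -0.093 to 0.035 for Fgf10, -0.00081 to 0.048 for Fgfr1, -0.059 to 0.045 for Fgfr2, -0.059 to 0.037 for Dusp6 and -0.049 to 0.033 for Map2k2. Between the doses it gave -0.079 to 0.025 for Fgfr2, -0.033 to 0.022 for Spry1 and -0.012 to 0.12 for Dusp6.

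Over all genes, the 226 calls at 100 pM against vehicle became 343 without the dimmest genes, 349 with the trended variance, 119 with all probesets, 10 with the 6 arrays, 76 without both second arrays and 88 to 259 when 1 array was left out. The 168 calls of the F test became 310, 308 and 65, 1 with analysis of variance, 51 without both second arrays and 85 to 176 when 1 array was left out. The 166 calls between the doses became 291, 284, 30, 1, 64 and 30 to 178 in the order given for 100 pM.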
